A study of Mus musculus with 2 samples.

Results

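The genes described here are 32 genes of the endoplasmic reticulum (ER) folding machinery and the unfolded protein response, of 32285 genes counted in single-cell RNA libraries of mouse myeloid-derived suppressor cells (MDSC). The members were taken from a written list of gene symbols, with no measured value in the rule. They were chosen with earlier results of these data known. All 32 were found in the count tables. Each had UMIs (unique molecular identifiers, each standing for 1 captured RNA molecule) in both libraries. Bone marrow cells of female C57BL/6 mice aged 10 weeks spent 4 days in culture with 50 ng/mL each of GM-CSF and IL-6, which drive MDSC formation in vitro. One culture received 1.5 µM dabrafenib (DAB), a BRAF kinase inhibitor, and the other the same volume of its solvent DMSO, so both carried the cytokines and the solvent. There was 1 library per condition, and no source read here states how many mice contributed to it.

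The ER is where secreted and membrane proteins are folded. When unfolded proteins build up in its lumen, the sensors IRE1α (encoded by Ern1), ATF6 and PERK are released from the chaperone BiP (encoded by Hspa5). IRE1α splices Xbp1 mRNA into the form that encodes an active transcription factor, ATF6 is cut in the Golgi to free its own factor, and PERK phosphorylates eIF2α, which lowers translation in general and favours that of ATF4. ATF6 and XBP1 raise chaperone and ER-associated degradation (ERAD) genes, while ATF4 is shared with GCN2, the amino acid sensing kinase on which the study centred. Developing granulocytes load granule proteins through the ER early in their maturation, and macrophages, mast cells and plasma cells are also secretory. The counts were taken per gene, so spliced and unspliced Xbp1 could not be told apart.

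The DMSO library kept 9032 cells with 92080530 UMIs (median 7491 per cell) and the DAB library 10476 cells with 139923355 UMIs (median 9388.5). The libraries shared 123 cell barcodes among the kept cells. Levels are given as counts per 1000000 UMIs of the cells in question (CPM), with exact Poisson intervals at 95% where printed, and ratios as log2 of DAB over DMSO with an exact interval. The intervals speak for counting error alone. With a single library on each side no test of the treatment was possible, and a difference between culture or library preparation and one of treatment cannot be told apart. A gene was said to pass the fold criterion when its log2 ratio was at least 0.5 in size and its interval left out 0, among genes with at least 20 UMIs in both libraries together. The 5′ chemistry counts 1 end of each transcript, so levels were compared between cells and libraries and not between genes.

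Sequence upstream of the members is shown first, because the elements through which ATF6 and XBP1 act on chaperone promoters are known by their letters. RefSeq promoter windows of build GRCm38.p6, from 250 bases before to 50 after each gene's start, matched 27 of the 32 members. Manf, Hyou1, Sec61a1, Atf6 and Derl1 were not matched. The ER stress response element (ERSE) was searched as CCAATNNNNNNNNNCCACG on both strands, where N is any base, and was found in 9 of the 27 members (33.3%) and in 37 of all 27025 genes with a window (0.137%). ERSE-II, searched as ATTGGNCCACG, was found in Herpud1 and Dnajb11, 2 of 27 members (7.41%) against 0.0444% of all genes. The windows around these matches are printed 5′ to 3′ on the gene's strand, with the match in capitals, and a match that reads on the other strand appears as its reverse complement. The stretch for Hspa5 is shorter because it lies in the first exon of a GENCODE transcript that begins upstream of the RefSeq start.
Hspa5, chr2:34772020-34772048, plus strand: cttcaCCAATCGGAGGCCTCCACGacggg
Hsp90b1, chr10:86705618-86705676, minus strand: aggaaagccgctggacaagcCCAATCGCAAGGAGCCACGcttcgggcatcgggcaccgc
Hsp90b1, chr10:86705513-86705571, minus strand, match on the other strand: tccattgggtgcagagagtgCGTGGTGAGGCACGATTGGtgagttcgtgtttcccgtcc
Calr, chr8:84847055-84847113, minus strand, match on the other strand: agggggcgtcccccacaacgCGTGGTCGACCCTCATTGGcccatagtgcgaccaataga
Canx, chr11:50325780-50325838, minus strand: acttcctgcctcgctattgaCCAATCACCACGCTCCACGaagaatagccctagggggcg
Pdia6, chr12:17266471-17266529, plus strand: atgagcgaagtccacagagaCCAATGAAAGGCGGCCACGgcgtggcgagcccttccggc
Dnajc3, chr14:118937807-118937865, plus strand: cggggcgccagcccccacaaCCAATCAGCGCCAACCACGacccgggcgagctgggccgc
Syvn1, chr19:6046512-6046570, plus strand: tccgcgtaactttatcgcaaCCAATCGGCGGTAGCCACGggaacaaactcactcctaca
Creld2, chr15:88819500-88819558, plus strand, match on the other strand: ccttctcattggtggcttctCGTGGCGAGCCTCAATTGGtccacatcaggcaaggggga
Derl3, chr10:75893222-75893280, plus strand, match on the other strand: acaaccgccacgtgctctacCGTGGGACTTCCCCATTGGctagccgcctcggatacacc
Herpud1, chr8:94386357-94386407, plus strand, ERSE-II: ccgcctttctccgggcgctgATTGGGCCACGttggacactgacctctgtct

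The ERSE in Hspa5 ended 47 bases before the RefSeq start, that in Syvn1 26 bases before it, and the farther of the pair in Hsp90b1 194 bases before it. The match in Dnajb11 lay after the start and is not printed. The XBP1-type element TGACGTGG was found in 0 of the 27 members and in 0.714% of all genes. The ATF4-type element TGATGNAA was found in 1 member, Herpud1 (3.70%), and in 4.51% of all genes. A match is a description of these letters only, and binding was not measured.

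Over all cells, 25 of the 32 genes had a ratio above 0, and the median was 0.31 on the log2 scale, beside -0.02 over the 16377 genes with enough UMIs. The fold criterion was passed upward by 5 of 32 members, Herpud1, Pdia5, Manf, Dnajb11 and Sec61a1, where 13.7% of all genes passed it. It was passed downward by Derl3 alone, where 16.5% of all genes passed. The members that passed were thus about as frequent as among all genes upward and fewer downward. Summed over the 32 genes, 5278 CPM in DMSO stood against 5919 in DAB (log2 ratio 0.17). The libraries differed in their mix of cells, and with every cluster given the same weight in both libraries the median was 0.18.

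Among the chaperones of the ER lumen, the highest levels in DAB relative to DMSO were those of Manf and Dnajb11. Manf, which encodes a secreted, ER-resident factor (ENSMUSG00000032575, minus strand of chromosome 9, 106838312 to 106891979, mm10), had 154 CPM in DMSO and 245 in DAB (log2 ratio 0.67, interval 0.64 to 0.70). Dnajb11, an Hsp40 co-chaperone of BiP, had 50.7 and 77.4 (log2 ratio 0.61). Hspa5, which encodes BiP itself (ENSMUSG00000026864, plus strand of chromosome 2, 34771970 to 34777547), had 333 CPM in DMSO and 454 in DAB, and its log2 ratio of 0.44 (0.42 to 0.46) stayed under the fold criterion. Hyou1, the nucleotide exchange factor of BiP, had 43.8 and 59.7 CPM (0.45), and Dnajc3, a co-chaperone that also restrains PERK, 68.5 and 92.3 (0.43). Sdf2l1, a partner of BiP and its Hsp40 proteins, had 139.6 and 177 (0.34). Hsp90b1, which encodes the Hsp90 of the ER, had 534 and 598 (0.16), Creld2, a disulfide-handling protein, 62.8 and 67.4 (0.10), and Dnajb9, a co-chaperone that represses IRE1α, 24.4 and 22.9 (-0.10). In all, 2 of 9 genes of this role passed the fold criterion upward and the median was 0.43.

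The lectin chaperones bind glycoproteins on their way through folding, and neither passed the fold criterion. Calr (calreticulin) had 273 CPM in DMSO and 329 in DAB (log2 ratio 0.27), and Canx (calnexin) had 195 and 189 (-0.04). Of the 5 disulfide isomerases, which form and exchange disulfide bonds, Pdia5 alone passed, at 5.44 and 8.88 CPM (0.71, interval 0.56 to 0.86). Pdia3, the isomerase that works with the lectin chaperones, had 243 and 315 (0.37). Pdia6 had 201 and 244 (0.28), Pdia4 134 and 150 (0.17), and P4hb 707 and 711 (0.01).

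ERAD returns misfolded proteins to the cytosol for degradation. Herpud1, which encodes an organiser of the ERAD complex (ENSMUSG00000031770, plus strand of chromosome 8, 94386438 to 94395377), had the largest positive ratio of the 32, from 33.4 CPM in DMSO to 54.8 in DAB (0.72, interval 0.65 to 0.78), and its class-standardized ratio was the same. The channel protein gene Derl1 had 96.6 and 131 CPM (0.44), the lectin gene Os9 91.9 and 124 (0.43), the adaptor Sel1l 48.8 and 65.3 (0.42), the mannose-trimming Edem1 101 and 135 (0.41), and the ubiquitin ligase Syvn1 14.9 and 18.8 (0.33). Derl2 was nearly level at 36.5 and 37.3 (0.03), and Edem2, a second mannose-trimming member, had 94.5 and 83.3 (-0.18). Derl3 was scarce, with 82 UMIs in all DMSO cells and 65 in all DAB cells (0.891 and 0.465 CPM, log2 ratio -0.94, interval -1.43 to -0.45), and it no longer passed once the Hspa5-rich cells described further on were left out.

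The translocon genes encode the channel through which new proteins enter the ER. Sec61a1, its pore, passed the fold criterion with 64.8 CPM in DMSO and 94.2 in DAB (0.54). Ssr1 had 63.9 and 84.7 (0.41), while Sec61b had 895 and 846 (-0.08) and Ssr3 161 and 142 (-0.19). Of the sensors, Ern1 had 43.1 and 49.3 (0.19) and Atf6 37.3 and 37.8 (0.02). Xbp1, the substrate of IRE1α, had 324 and 276 CPM (-0.23), the lowest ratio of the 32 genes after Derl3.

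**Figure D1:**
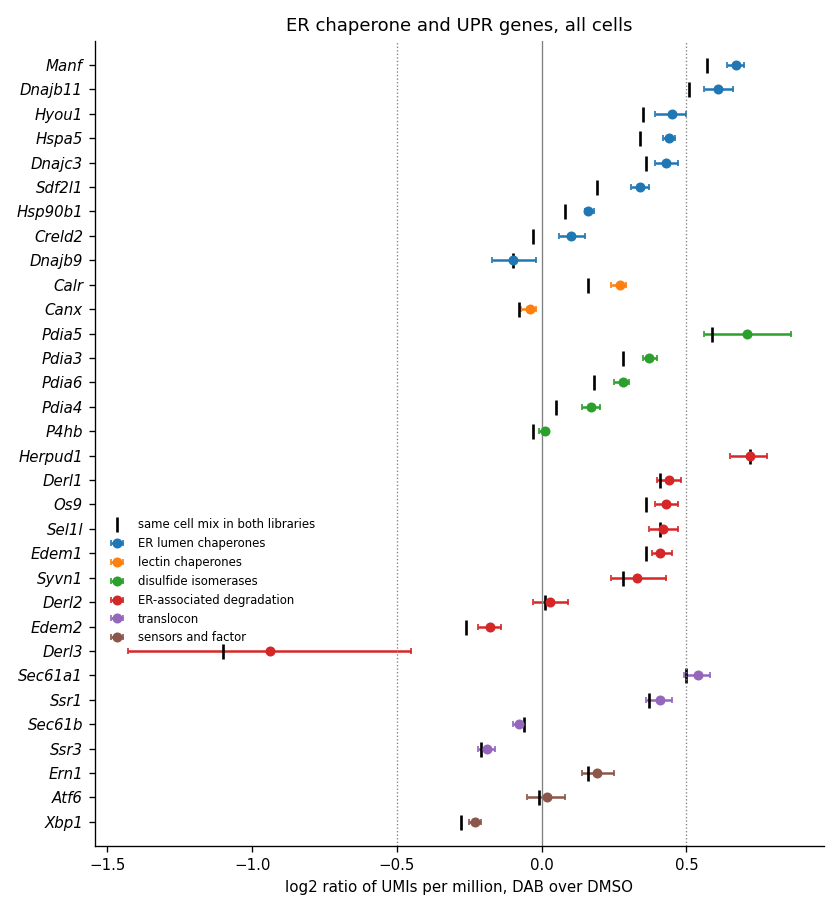
Log2 ratio of DAB over DMSO for each of the 32 genes over all cells (x axis), coloured by role, with 95% counting intervals; black ticks give the ratio with the cell mix held equal and dotted lines mark 0.5 and -0.5. Herpud1, Pdia5, Manf, Dnajb11 and Sec61a1 lie beyond the upper line and Derl3 beyond the lower one, with the widest interval.

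Cells were clustered without the 32 genes and the other listed genes, and clusters were called X-like from marker genes. Of the 26 clusters 12 were named, and the unnamed ones held 53.4% of the cells in DMSO and 58.4% in DAB. The 5 classes compared in depth held at least 200 cells of each library: granulocyte progenitor-like cells (369 in DMSO, 408 in DAB), intermediate granulocyte-like cells (738 and 296), mature polymorphonuclear (PMN)-like cells (964 and 1234), immature monocyte-like cells (868 and 642) and mature monocyte-like cells (587 and 688). Depth differed between them, from a median of 2834.5 UMIs per cell in mature PMN-like DMSO cells to 28412 in mature monocyte-like DAB cells.

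The genes differed in level along the granulocyte path in both libraries. The granulocyte progenitor-like cells had the highest level of the 5 classes for 16 genes in DMSO and 20 in DAB, the same 15 in both, and the mature monocyte-like cells for 10 and 7. The lowest level was in intermediate granulocyte-like cells for 22 genes in DMSO but 12 in DAB, and in mature PMN-like cells for 7 and 17. Summed over the 32 genes, granulocyte progenitor-like cells had 7417 CPM in DMSO and 8708 in DAB, intermediate granulocyte-like cells 2643 and 4453, mature PMN-like cells 3184 and 3481, immature monocyte-like cells 6023 and 5828, and mature monocyte-like cells 7079 and 7034. The fold between the highest and the lowest class was 15.1 in DMSO and 8.28 in DAB for Sdf2l1, the widest once Pdia5 and Derl3 were set aside, and 1.42 and 1.39 for Edem1. Pdia5 and Derl3 had at most 2 UMIs in their lowest class, so their fold is poorly known: Pdia5 had 16.5 CPM in granulocyte progenitor-like cells in DMSO and 0.176 (interval 0.00446 to 0.982) in intermediate granulocyte-like cells, and in DAB 25.9 against 0.484 (interval 0.0587 to 1.75) in mature PMN-like cells. For Hspa5 it was 3.94 and 2.53, and for Calr 5.46 and 4.56. The interval of the highest class was clear of the next one for Hspa5 in both libraries, while for Sdf2l1 mature monocyte-like cells (192 in DMSO, 241 in DAB) overlapped immature monocyte-like cells in DMSO (190.0) and granulocyte progenitor-like cells in DAB (236).

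Set against all other cells of the same library, Pdia5 and Hyou1 were at least 2-fold higher in granulocyte progenitor-like cells in both libraries, where 3.0% of all genes were, and 0 members were as much lower, where 4.23% were. In intermediate granulocyte-like cells Pdia5, Sdf2l1, Edem2 and Ern1 were at least 2-fold lower in both libraries (4 of 32, where 15.1% of all genes were) and 0 were higher (2.72% of all genes). In mature PMN-like cells 10 of 32 were at least 2-fold lower in both, Hsp90b1, Calr, Pdia4, Pdia5, Pdia6, Sdf2l1, Herpud1, Manf, Hyou1 and Sec61b, where 8.53% of all genes were, and 0 were higher (5.98%). In immature monocyte-like cells 0 were higher and 0 lower (1.23% and 6.85% of all genes). In mature monocyte-like cells Derl3 was lower (8.44%) and 0 were higher (4.23%). The share of members on the low side was above that of all genes in mature PMN-like cells and near it in intermediate granulocyte-like cells. The median member log2 ratio over other cells was -0.94 in DMSO and -0.52 in DAB in intermediate granulocyte-like cells. In mature PMN-like cells it was -0.73 and -0.62.

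**Figure D2:**
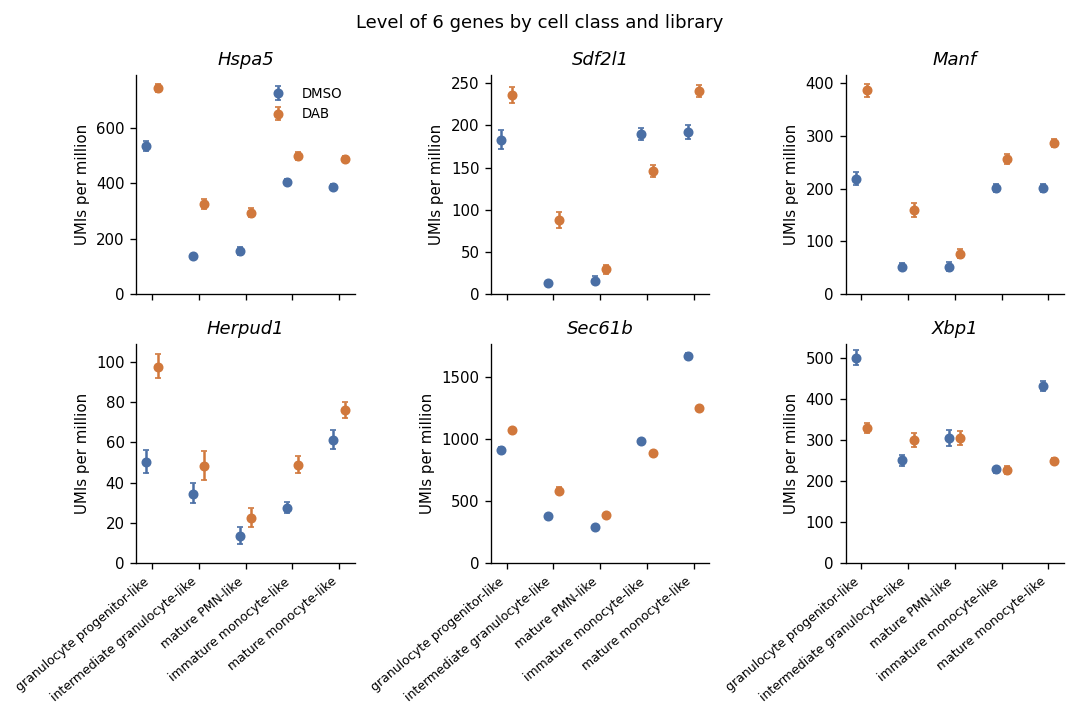
CPM (y axis, linear from 0) of Hspa5, Sdf2l1, Manf, Herpud1, Sec61b and Xbp1 in the 5 classes, DMSO beside DAB, with 95% counting intervals. Hspa5 was highest in the granulocyte progenitor-like cells of both libraries, at 536 and 745, and Xbp1 was lower in DAB in granulocyte progenitor-like and mature monocyte-like cells.

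Of the 5 classes, the widest difference between the libraries was in intermediate granulocyte-like cells. Here 19 of the 30 genes with enough UMIs passed the fold criterion upward, where 26.9% of all genes did, and 1, Dnajb9 (-0.60), passed downward, where 11.9% did. The median was 0.73, beside 0.21 over all genes of this class, and the summed level had a log2 ratio of 0.75 (0.72 to 0.78). The share of upward genes among all genes was itself the highest of the 5 classes, and the 296 DAB cells had more UMIs per cell (median 11318) than the 738 DMSO cells (6973.5) and a higher summed level of proliferation genes (905 CPM against 582). The part of these differences in the result was not tested. Scaling by the median of ratios in place of total UMIs shifted every ratio of this class by -0.16, and 16 genes then passed upward.

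Sdf2l1 had the largest ratio in these cells, with 72 UMIs (12.7 CPM) in DMSO and 337 (87.5 CPM) in DAB, and its log2 ratio was 2.79 (2.41 to 3.17). Manf had 51.8 CPM and 159 (1.62), and Creld2 had a log2 ratio of 1.61. Hspa5 had 136 and 324 (1.26, interval 1.13 to 1.39). The DAB levels of Sdf2l1, Manf and Hspa5 still lay below those of granulocyte progenitor-like cells in DMSO, which were 183, 219 and 536 CPM. By role, 8 of 9 lumen chaperones passed upward, with a median of 1.26, among them Dnajb11 (1.30), Dnajc3 (0.84), Hsp90b1 (0.83) and Hyou1 (0.80). All 4 disulfide isomerases with enough UMIs passed: Pdia6 (1.44), Pdia4 (1.18), Pdia3 (0.96) and P4hb (0.63). Calr had 75.3 CPM in DMSO and 196 in DAB (1.38). Among translocon genes Sec61a1 (1.01), Ssr1 (0.66) and Sec61b (0.63) passed, and among sensors Ern1 (0.80). ERAD genes differed less, with Os9 (0.85) and Syvn1 (0.61) of 8 genes past the criterion and a median of 0.41. Pdia5 had 1 UMI in DMSO and 8 in DAB and was too scarce to compare, as was Derl3.

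In mature PMN-like cells 8 of 30 genes passed upward, where 20.1% of all genes did, and 0 passed downward (9.0%). The median was 0.21, close to the 0.17 of all genes. Hspa5 had 154 CPM in DMSO and 294 in DAB (0.93), Sdf2l1 16.0 and 29.1 (0.86), Manf 51.5 and 76.1 (0.56), and Herpud1 13.4 and 22.5 (0.75). Ern1 (0.96), Creld2 (0.88), Ssr1 (0.57) and Dnajb11 (0.51) were the others. By role, 5 of 9 lumen chaperones passed upward, with a median of 0.51, and 0 of 4 disulfide isomerases, with a median of -0.22. The upward share of the members was only somewhat above that of all genes, and the split by role was not tested. Calr was nearly level at 100.5 and 105 CPM. Mature PMN-like cells were the shallowest class, with a median of 2834.5 UMIs per cell in DMSO and 3055.5 in DAB.

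In granulocyte progenitor-like cells 9 of 31 genes passed upward, where 15.8% of all genes did, and Xbp1 passed downward, where 16.5% did. The median was 0.28, beside -0.02 for all genes. Herpud1 had 50.4 CPM in DMSO and 97.6 in DAB (0.96) and Manf 219 and 386 (0.82). Sec61a1 (0.68), Hyou1 (0.66), Pdia5 (0.65), Syvn1 (0.63), Dnajb11 (0.62), Ssr1 (0.55) and Os9 (0.52) also passed, so that every role but the lectins and the sensors had a gene among the 9. Hspa5 stayed under the criterion here, at 536 and 745 (0.48).

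The monocyte-like classes differed less between the libraries in their summed level. In immature monocyte-like cells 4 of 32 genes passed upward, where 12.1% of all genes did, and 1 downward, where 18.7% did. The median was -0.02. At a coarser clustering (Leiden resolution 0.5) the cluster given this name was a larger set, of 1339 DMSO and 1551 DAB cells, with a median of 0.18. In the main clustering the 4 upward genes, a share close to that of all genes, were Herpud1 (0.83), Derl1 (0.65), Sel1l (0.60) and Edem1 (0.55). All 4 are ERAD genes, and their shared role was not tested. The gene that passed downward, Edem2 (-0.66), had the same role. Sdf2l1 had 190.0 CPM in DMSO and 146 in DAB (-0.38) and Calr 359 and 323. Neither of these folding genes passed the criterion. In mature monocyte-like cells 5 of 31 genes passed upward, a share close to the 14.9% of all genes. They were Pdia5 (1.28), Os9 (0.71), Sel1l (0.60), Dnajb11 (0.52) and Manf (0.51). Xbp1 alone passed downward, where 20.6% of all genes did. The median was 0.24, beside -0.05 for all genes, and Sec61b had 1667 CPM in DMSO and 1252 in DAB (-0.41).

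Xbp1 encodes a factor known to raise chaperone genes, and its own level differed between the libraries in either direction. It had 501 CPM in DMSO and 330.1 in DAB in granulocyte progenitor-like cells (-0.60, interval -0.67 to -0.53), and 433 and 249 in mature monocyte-like cells (-0.80, interval -0.85 to -0.74). It was level in mature PMN-like cells, at 306 and 306, and in immature monocyte-like cells, at 229 and 228. In intermediate granulocyte-like cells it had 251 and 300.3. In the small activated dendritic cell-like class (166 and 111 cells) it had 319 and 153 (-1.07, interval -1.26 to -0.87). It passed upward in basophil or mast cell-like cells (52 and 85 cells), with 211 and 303 CPM (0.52, interval 0.16 to 0.89). Macrophage-like cells had 182 and 221 (0.28), chemokine-high granulocyte-like cells 232 and 215 (-0.11) and B cell-like cells 169 and 137 (-0.30). In granulocyte progenitor-like and mature monocyte-like cells it passed downward where Manf passed upward.

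Small classes held members that stood high or low against other cells. Herpud1 and Sec61b were at least 2-fold higher in activated dendritic cell-like cells than in other cells in both libraries, Herpud1 with 89.5 CPM in DMSO and 185 in DAB and Sec61b with 2158 and 2309 (2 of 32, where 7.49% of all genes were). In the same cells 9 of 32 were at least 2-fold lower in both, Hspa5, Hsp90b1, Pdia4, Pdia5, Pdia6, Dnajb9, Sdf2l1, Creld2 and Hyou1, where 12% of all genes were. Derl3 and Syvn1 were at least 2-fold higher in both libraries in B cell-like cells (141 and 192 cells), Derl3 with 19 and 22 UMIs (27.9 and 20.7 CPM) and Syvn1 with 54.4 and 57.3 CPM (2 of 32, where 6.44% of all genes were). There 7 of 32 were at least as much lower, Calr, Pdia5, P4hb, Sdf2l1, Edem2, Sec61b and Os9, where 10.7% of all genes were. P4hb and Os9 were higher by this measure in basophil or mast cell-like cells (52 and 85 cells), P4hb with 1696 and 1507 CPM and Os9 with 326 and 407 (2 of 32, where 6.03% of all genes were), and 0 were lower (5.34%). The basophil or mast cell-like class had a summed level of 8015 in DMSO and 8404 in DAB, and the macrophage-like class 5036 and 4845.

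**Figure D3:**
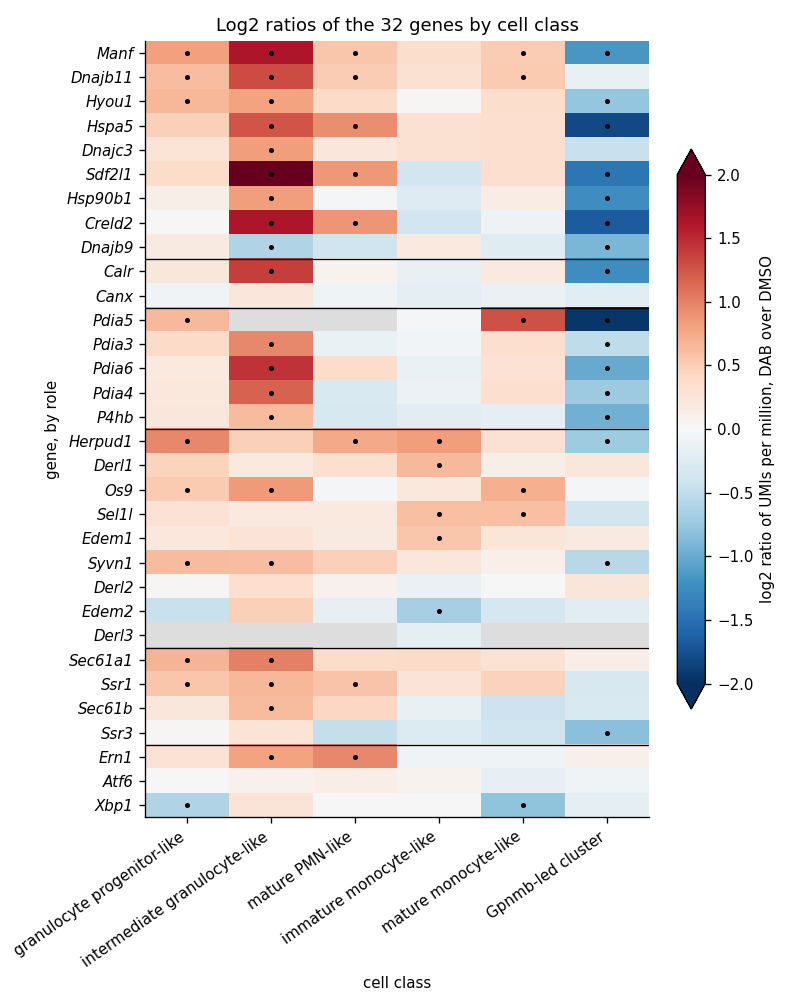
Log2 ratio of DAB over DMSO (colour, cut at -2 and 2) for the 32 genes (lines of the map) in the 5 classes and the Gpnmb-led cluster (columns), with black dots where the fold criterion was passed and grey where UMIs were too few. Intermediate granulocyte-like cells hold 19 upward dots. In the Gpnmb-led cluster 17 genes passed downward, and each of them but Derl3 has a dot. Derl3 is grey there because it had 0 UMIs in DAB and so no finite ratio, not because UMIs were too few.

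Of 23 clusters, named or unnamed, with at least 100 cells of each library, the summed level was higher in DAB in 13 and lower in 6, by intervals that left out 0. The members' median was above that of all genes in 19. An unnamed cluster led by Gpnmb, Ccl3 and Atp6v0d2, picked out after its values were seen, had the lowest summed ratio of the 23. It thus went the other way from intermediate granulocyte-like cells. It held 294 DMSO and 936 DAB cells, with medians of 4030.5 and 4431.5 UMIs per cell. Of its 32 genes 0 passed the fold criterion upward, where 12.5% of all genes did, and 17 passed downward, where 10.4% did, with a median of -0.54 beside 0.07 for all genes. The summed level was 5998 CPM in DMSO and 3492 in DAB (-0.78, interval -0.81 to -0.75). Hspa5 had 977 and 280.3 CPM (-1.80, interval -1.90 to -1.70), Sdf2l1 156 and 56.8 (-1.45), Hsp90b1 710.4 and 298 (-1.25), Calr 334 and 142 (-1.24) and Manf 210.4 and 94.0 (-1.16). Creld2 had a log2 ratio of -1.66. The ERAD genes Edem1 (120.3 and 136), Derl1 (129 and 151) and Derl2 (43.9 and 51.7) had higher values in DAB but did not pass. Derl3 had 23 UMIs in DMSO and 0 in DAB. By marker genes the nearest class to this cluster was chemokine-high granulocyte-like, with 5 of 5 markers raised. Its 10 leading genes held 1 marker of that class and 1 of another, a tie the naming rule did not accept. The named chemokine-high granulocyte-like class (133 and 509 cells) had a summed level of 3543 and 3583 CPM (0.02). Hspa5 there had 225 and 304 CPM (0.44).

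The median cell of the Gpnmb-led cluster differed little between the libraries, with 31.7 UMIs of the 32 genes per 10000 in DMSO and 29.7 in DAB. The upper quartiles were 46.6 and 39.6. The DMSO sum held 11 cells with very high Hspa5. Without these and the 3 such DAB cells the summed level was 4326 against 3422 (-0.34, interval -0.38 to -0.30), the median was -0.19 and 7 of 30 genes passed downward. Hspa5 was then 315 and 257 CPM (-0.29) and Creld2 43.6 and 37.3 (-0.23, interval -0.62 to 0.18). Hsp90b1 (505 and 289), Calr (245 and 138) and Sdf2l1 (88.4 and 54.2) still passed, with log2 ratios of -0.81, -0.83 and -0.71. The cells left out were picked by Hspa5 and were more frequent in DMSO, so the smaller size of the Hspa5 ratio follows from that choice. The share of all genes was not counted again without them.

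**Figure D4:**
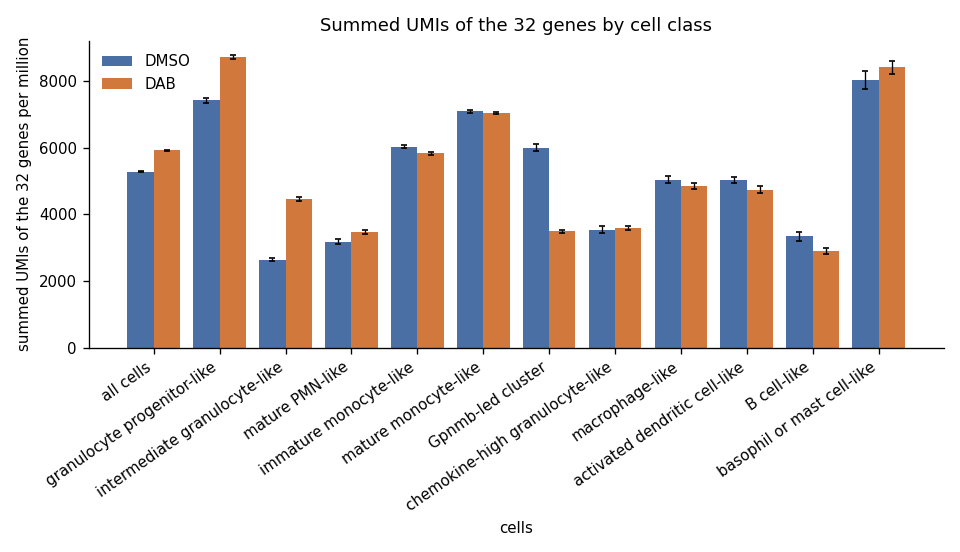
Summed CPM of the 32 genes (y axis, from 0) in all cells, the named classes and the Gpnmb-led cluster, DMSO beside DAB, with 95% counting intervals. The bars differ most in intermediate granulocyte-like cells (2643 and 4453) and, in the other direction, in the Gpnmb-led cluster (5998 and 3492).

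Cells with very high Hspa5 occurred in both libraries. They were taken, after the data were seen, as cells with at least 30 Hspa5 UMIs per 10000 and at least 10 in number, so their Hspa5 level is a matter of choice and is not a result. There were 31 such cells of 9032 in DMSO (0.343%, exact binomial interval 0.233% to 0.487%) and 50 of 10476 in DAB (0.477%, 0.354% to 0.629%). Thinned to 3000 UMIs per cell, which left out 1604 DMSO and 1509 DAB cells, the shares with at least 9 Hspa5 UMIs were 0.498% (0.351% to 0.686%) and 0.647% (0.492% to 0.835%). Such intervals count cells within 1 library and hold no variation between cultures, so the difference between the conditions was not tested. The Hspa5 level ran on across the limit, with 21 DMSO and 44 DAB cells between 20 and 30 per 10000 and 11 and 15 between 30 and 40. These cells held 9.19% of all Hspa5 UMIs in DMSO and 5.38% in DAB, in 0.497% and 0.365% of all UMIs.

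The other members stood high in the same cells. Of the other 31 genes, 26 were at least 2-fold higher in the Hspa5-rich cells than in other cells in DMSO, 26 in DAB and 25 in both, where 3.10% of all genes were higher in both, and 0 were as much lower, where 0.879% of all genes were. Their median log2 ratio over other cells was 1.93 in DMSO and 1.79 in DAB. The shares of all genes count those with at least 20 UMIs in each library, and scarce genes can hardly pass in so few cells. The members and all genes were not matched for level. Hyou1 had 374 CPM in the rich cells and 42.1 in the others in DMSO, and 403 and 58.5 in DAB. Creld2 had 776 against 59.2 in DMSO and 415 against 66.2 in DAB. Manf had 1031 against 149.8 and 758 against 243. The genes that did not reach 2-fold in both libraries were Edem1 (0.91 and 0.85), Edem2 (0.95 and 0.92), Derl1 (1.27 and 0.73), Derl2 (0.94 and 1.11), Sec61b (0.09 and -0.37) and Xbp1 (-0.66 and 0.00), where the values are log2 ratios over other cells in DMSO and in DAB. Because the cells were picked by a chaperone gene of the same list, the joint height of its partners is a description of these cells and not a test.

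Derl3, a Derlin of the ERAD channel, was concentrated there in DMSO and less so in DAB. In DMSO 43 of its 82 UMIs (52.4%) lay in 14 Hspa5-rich cells, at 93.9 CPM against 0.426 in other cells, a log2 ratio of 7.79 (7.13 to 8.45). In DAB 10 of 65 UMIs (15.4%) lay in 3 such cells, at 19.6 against 0.395 CPM (5.63, 4.5 to 6.62). B cell-like cells, with 0 Hspa5-rich cells in either library, held 19 of the DMSO UMIs (27.9 CPM) and 22 of the DAB UMIs (20.7 CPM). In DAB this was more of the Derl3 UMIs than the Hspa5-rich cells held. Plasma cells are the classic Derl3-expressing secretory cells. Of 6 plasma cell marker genes, 5 were at 0 with 1 UMI in all in the DMSO Hspa5-rich cells, and all 6 were at 0 in the DAB ones. In B cell-like cells the same 6 genes together had 3380 CPM in DMSO and 2336 in DAB, with 1 and 0 of them at 0. The Hspa5-rich cells had a median of 13406 UMIs per cell in DMSO and 8420.5 in DAB, beside 7480 and 9395.5 in the other cells. Mitochondrial genes held 1.62% of their summed UMIs in DMSO and 2.99% in DAB, beside 1.19% and 1.30% over all cells.

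**Figure D5:**
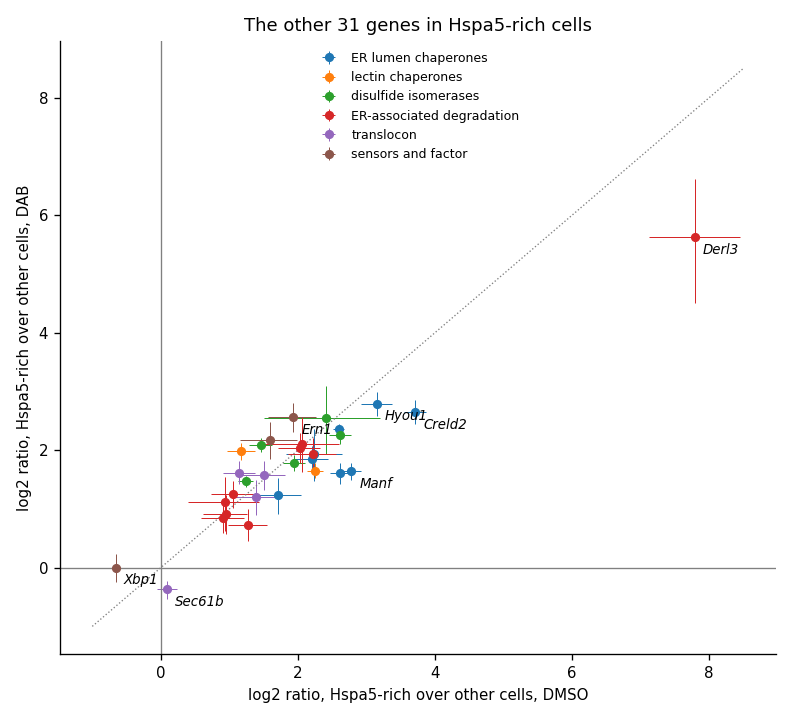
Log2 ratio of Hspa5-rich cells over other cells in DMSO (x axis) and in DAB (y axis) for the other 31 genes, 1 point per gene coloured by role. Most points lie beyond 1 on both axes, Derl3 lies farthest out at 7.79 and 5.63, and Xbp1 and Sec61b lie near 0 or below.

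The Hspa5-rich cells were unevenly spread over clusters. In the Gpnmb-led cluster they made up 11 of 294 in DMSO (3.74%, interval 1.88% to 6.6%) and 3 of 936 in DAB (0.321%, 0.0661% to 0.934%). In an unnamed cluster led by Gm26917, Gria3 and Kcnq5 they made up 7 of 204 in DMSO (3.43%, interval 1.39% to 6.94%) and 23 of 306 in DAB (7.52%, 4.82% to 11.1%). Immature monocyte-like cells held 7 in DMSO (0.806%) and 5 in DAB (0.779%). Intermediate granulocyte-like and mature monocyte-like cells held 0 in both libraries, so the values of those classes do not rest on such cells. The mature PMN-like class held 7 in DAB and 0 in DMSO, from both of its clusters (5 of 971 and 2 of 263 DAB cells). Without these cells 7 of 30 genes of the class passed upward and 1 downward, and the share of all genes was not counted again. Hspa5 then had a log2 ratio of 0.72 in place of 0.93. The cells were picked by Hspa5 and all came from DAB here, so a lower Hspa5 ratio was fixed by that choice.

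Other genes of the pathway were taken from lists and are given by their counts over all cells. Of 12 genes of the PERK and ATF4 branch, 7 passed the fold criterion upward and 1 downward. Their median was 0.66, about the size of the largest member ratios. Of all genes 13.7% passed upward and 16.5% downward. Trib3, a pseudokinase induced by ATF4, had 15.7 CPM in DMSO and 94.0 in DAB (2.59), and Chac1, which degrades glutathione, 4.07 and 27.7 (2.77). Eif2ak3, the gene of PERK itself, had 21.4 and 15.7 (-0.45), and Atf3, an early stress factor, 57.1 and 24.0 (-1.25). This list had 8 genes upward and 2 downward in granulocyte progenitor-like cells, where 15.8% and 16.5% of all genes passed. It had 7 and 0 in intermediate granulocyte-like cells (26.9% and 11.9% of all genes). The counts were 5 and 2 of 11 in mature PMN-like cells (20.1% and 9.0%). In immature monocyte-like cells they were 8 and 1 (12.1% and 18.7%), and in mature monocyte-like cells 4 and 4 (14.9% and 20.6%). In immature monocyte-like cells the list's median of 1.06 stood beside a median of -0.02 for the 32 members. In the Gpnmb-led cluster the list's median was 0.54, with 7 upward and 2 downward, beside -0.54 for the members. There 12.5% of all genes passed upward and 10.4% downward. Without the Hspa5-rich cells the members' median in this cluster was -0.19, and the list was not counted again without them. The lumen chaperones of the immature monocyte-like cells had a median of 0.20, with 6 of 9 above 0 and 0 past the criterion. The differences between lists were not tested. In the Hspa5-rich cells Ddit3, Ppp1r15a, Trib3 and Ero1l, 4 of the 12, were at least 2-fold higher than in other cells in both libraries. Of all genes 3.10% were.

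The remaining lists had smaller medians over all cells, where 13.7% of all genes passed upward and 16.5% downward. Of 20 genes of translocation, signal peptidase and N-glycosylation, 2 passed upward and 0 downward (median 0.26): the translocon-associated Ssr2 had 103 and 159.8 CPM (0.63) and Ddost, of the oligosaccharyltransferase, 148 and 213 (0.53), while Stt3b (0.05) and Sec62 (-0.09) were at the other end. Of 14 other ERAD genes 2 passed upward (median 0.06): Selenos, which links Derlins to p97, had 52.3 and 87.5 (0.74), and Vcp, the gene of p97, had a ratio of 0.50, with Man1b1 at -0.19 and Edem3 at -0.32. Of 15 other ER folding genes 1 passed upward and 1 downward (median 0.12), Fkbp2 (0.52) and Ero1lb (-0.64), with Uggt1 at 0.38 and Prdx4 at -0.41. Of 7 other sensors and proteases 0 passed (median 0.28), from Mbtps2 (0.11) and Bloc1s1 (0.19) to Mbtps1 (0.32) and Creb3 (0.37). In intermediate granulocyte-like cells 13 of 20 genes of the translocation list (median 0.62) and 10 of 15 other ER folding genes (median 0.95) passed upward. Of all genes of this class 26.9% passed upward and 11.9% downward. In the same class 3 of the 14 other ERAD genes passed upward and 1 downward (median -0.01), 3 of 7 other sensors and proteases passed upward (median 0.51), and of the 16 chaperones outside the ER 9 passed upward and 4 downward (median 0.62), so values of this size were neither shared by all ER lists nor confined to them.

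Chaperones outside the ER, taken for contrast, were mixed over all cells: 4 of 16 passed upward and 3 downward, with a median of 0.18. Among all genes 13.7% passed upward and 16.5% downward. The mitochondrial Hspa9 (1.12) and the cytosolic chaperonin subunit Cct3 (0.68) were highest. The heat-inducible Hspa1a had 10.2 CPM in DMSO and 0.443 in DAB (-4.53), and Hspa1b had a ratio of -4.03.

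The 11 members with an ERSE or ERSE-II in their window were set beside the 16 without. Manf, Hyou1, Sec61a1, Atf6 and Derl1 had no window and are in neither group. Over all cells the medians with and without a match were 0.28 and 0.18, with 2 upward and 1 downward of 11 against 1 and 0 of 16. Of all genes 13.7% passed upward and 16.5% downward. In intermediate granulocyte-like cells 8 of 10 with a match passed upward, with a median of 1.05, against 8 of 15 without (0.63). There 26.9% of all genes passed upward. In mature PMN-like cells the medians were 0.42 and 0.00. In the Gpnmb-led cluster 8 of 11 and 7 of 16 passed downward, where 10.4% of all genes did, with medians of -0.86 and -0.34. Derl3, with 0 UMIs in DAB, is counted among the 8 but has no finite ratio and is left out of the -0.86. The Gpnmb-led contrast was not repeated without the Hspa5-rich cells. Without them the summed ratio of all members there was -0.34 in place of -0.78. In Hspa5-rich cells, Hspa5 itself left out, 10 of 10 genes with a match were at least 2-fold higher than in other cells in DMSO, with a median of 2.21, and 11 of 16 without (1.31). In DAB the counts were 10 of 10 (1.96) and 12 of 16 (1.54). Of all genes 3.10% were at least 2-fold higher in both libraries. The cells were picked by Hspa5, which has an ERSE itself, so this contrast is not independent of that choice. In granulocyte progenitor-like cells (0.25 and 0.23) and immature monocyte-like cells (-0.13 and -0.06) the medians lay close together. In mature monocyte-like cells the medians were 0.24 and 0.12, with 1 of 10 genes upward with a match and 3 of 16 without. There 14.9% of all genes passed upward. All these contrasts are descriptions with no test.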

How the data were processed

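The authors deposited raw UMI counts per gene and barcode, made per the labels and methods with Cell Ranger 7.0.0 on mm10. Seurat 4.3.0 and R 4.1.2 also stand in the submitters' processing notes. Barcodes over 10% mitochondrial UMIs (55 DMSO, 89 DAB) and simulated-doublet calls (768 and 1066) were removed. An upper limit of 4 median absolute deviations took out 0. Pearson residuals (theta 100) of 3000 variable genes, with 118 listed genes left out and cycle and mitochondrial scores regressed, gave 40 components, which were aligned by mutual nearest neighbours and clustered with Leiden (resolution 0.9, seed 1). Names needed at least 3 markers at a log2 fold of at least 1, by a rule set after the clusters were seen. Python 3.11.15, numpy 2.4.6, scipy 1.17.1, pandas 2.3.3, scikit-learn 1.9.0, igraph 0.11.9, leidenalg 0.10.2 and matplotlib 3.10.9 were used. Summed counts were compared with exact conditional intervals, which were tested on simulated data. All 32 members are named, and from each other list the 2 highest and 2 lowest ratios among genes with at least 200 UMIs. Members and lists were chosen with earlier results of these data known.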

Additional observations from a re-analysis of the deposited data

Results flagged for a closer look

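The summed level of the 32 genes was higher in DAB in intermediate granulocyte-like cells (log2 ratio 0.75) and lower in DAB in the Gpnmb-led cluster (-0.78). The same opposition was seen for Hspa5 (1.26 and -1.80), Calr (1.38 and -1.24), Sdf2l1 (2.79 and -1.45), Manf (1.62 and -1.16), Hsp90b1 (0.83 and -1.25) and Creld2 (1.61 and -1.66), the intermediate granulocyte-like value standing first. In all, 12 genes passed the fold criterion upward in the first and downward in the second. Of all genes 26.9% passed upward in the first and 10.4% downward in the second, and the share that did both was not counted. With 1 library per condition the difference between the groups of cells was not tested, and the Gpnmb-led cluster was singled out after its values were seen. Without the Hspa5-rich cells its summed ratio was -0.34 and 7 of 30 genes passed downward. Hspa5 (-0.29), Creld2 (-0.23) and Manf (-0.48) then did not pass, while Calr (-0.83), Sdf2l1 (-0.71) and Hsp90b1 (-0.81) did. The cells left out were picked by Hspa5, so the change in its own ratio follows from that choice.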

How the results depend on the processing

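No paired analysis was possible because there was 1 library per condition. Over all cells the members' median was 0.18 with the cell mix held equal. With a minimum of 200 UMIs, and also without Hspa5-rich cells, 0 members passed downward, and at a log2 fold of 1 there were 0 upward and 0 downward. The immature monocyte-like median was -0.02 in the main setting, 0.18 at Leiden resolution 0.5 and 0.17 with doublets kept. The cells so named were not the same set. They were 868 DMSO and 642 DAB cells in the main setting, 1339 and 1551 at resolution 0.5, and 811 and 1210 with doublets kept. Prg2, Cd200r3 and Il2ra were among the leading genes under both alternatives and not in the main setting. The part of this in the medians was not tested. In the Gpnmb-led cluster the median was -0.19 without Hspa5-rich cells, and Herpud1 turned to 0.06 at resolution 0.5, 0.14 with libraries not aligned and 0.26 with scores not regressed. The median ranged from 0.57 to 0.73 in intermediate granulocyte-like cells and from 0.23 to 0.39 in granulocyte progenitor-like cells. For mature monocyte-like cells the range was 0.19 to 0.30, and for mature PMN-like cells 0.03 to 0.31. Scaling by the median of ratios moved intermediate granulocyte-like values by -0.16, with 16 genes upward in place of 19, and 9 passed at a log2 fold of 1. In mature PMN-like cells 3 passed upward with scores not regressed, and in immature monocyte-like cells 7 with doublets kept. The share of all genes was not counted under any of these alternative settings. With scores not regressed the mature PMN-like clusters held 764 DMSO and 1056 DAB cells and 481 and 1157. The main class held 964 and 1234, so the sets differ. Granulocyte progenitor-like cells were 369 and 408 in the main setting, 181 and 163 at resolution 0.5 and 172 and 166 with scores not regressed. In the main setting 17 genes of the Gpnmb-led cluster passed downward, and 7 of 30 without the Hspa5-rich cells. The best-matching clusters for the Gpnmb-led cells under other clusterings had 11 to 16 genes downward and 0 upward. The Hspa5-rich cells were not left out of these clusters, and the share of all genes in them was not counted. The matched clusters were not the same cells. The cells shared with the Gpnmb-led cluster ranged from 43.7% of the union (scores not regressed) to 97.5% (resolution 1.5). Of 1858 gene values under the alternatives, 1555 stayed within their counting intervals, 300 moved beyond them and 3 reversed. The 1555 include values under the minimum of 200 UMIs, which cannot change the ratio of a gene. Over all cells, the values without cell filters and with doublets kept were the same in the digits kept. The tally is therefore no measure of how firm the ratios are. Scarce genes such as Derl3 and Pdia5 are limited by depth.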
